A study of Mus musculus with 12 samples.

Results

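The genes described here make cholesterol, sense it and move it within and out of the cell. They are 28 genes given by name, of 19017 genes or unnamed accessions that could be tested on the arrays. They were chosen for what they do, with earlier results of these data known. Probes were tied to the genes through their RefSeq accessions, and 27 of the 28 were matched and tested. Idi1, the isomerase between Mvd and Fdps in the pathway, had no probe matched in this way, and its expression was not analysed here. The brightest tested probe stood for each gene, and the other tested probes of 11 members served as a check, in a separate fit of all tested probes.

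Cholesterol is built from acetyl-CoA, first through mevalonate to farnesyl pyrophosphate, then through squalene and lanosterol to the finished sterol. The transcription factor SREBP-2, encoded by Srebf2, switches on the genes of this pathway. When sterols are plentiful, the Insig proteins hold SREBP-2 and its escort Scap in the endoplasmic reticulum, and when sterols are scarce the pair moves to the Golgi, where proteases free the active factor. The liver is a main site of cholesterol synthesis and of cholesterol uptake from the blood.

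Cultured primary hepatocytes of C57BL/6 mice were profiled in 4 groups of 3 cultures. The groups were PGC-1alpha -/- cells with an adenovirus encoding a hairpin RNA against TLS (shTLS), PGC-1alpha -/- cells with a control hairpin, PGC-1alpha +/+ cells with shTLS and PGC-1alpha +/+ cells with the control hairpin. All cultures were infected at a multiplicity of 5, kept with 100 nM dexamethasone, 100 nM insulin and fetal serum, and harvested 24 h after infection, so all 4 groups carried an adenovirus, and insulin, serum and dexamethasone were present throughout. Each of 6 mice, 3 per genotype, gave 1 culture with each hairpin. PGC-1alpha is a coactivator of mitochondrial and gluconeogenic genes. The labels name 1 hairpin against TLS and do not say which part of the PGC-1alpha gene is missing.

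Ppargc1a, which encodes PGC-1alpha, differed by -0.18 (SE 0.52) between -/- and +/+ cells, and since the deleted part is not stated its probe checks nothing about the genotype. Before normalization the shTLS arrays were dimmer, with a 75th percentile of 344 to 635, against 810.4 to 1064 on the control arrays. On each array 22706 to 26679 of the 41174 probes passed the scanner's test against background, and correlations within groups were 0.946 to 0.979. Each of the 3 slides held all 4 groups, always in the same places, so the place on the slide cannot be told apart from the group. Precision is limited by having 3 arrays in each group.

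The promoters shown are those of the 4 members that fell with shTLS, and of Hmgcs1. Among the 22 members with a window, Hmgcs1 alone held the letters TCACNCCAC, the short sterol regulatory element. They are RefSeq windows of build GRCm38.p6, from 250 bases before to 50 bases after the start of the gene, written 5′ to 3′ on the gene's strand. Capitals mark CCAAT, the site of NF-Y, and TCACNCCAC, the sterol regulatory element, each read on either strand, so that ATTGG is CCAAT on the opposite strand. Srebf2 lies at chr15:82147019-82147318 (plus strand), Mvk at chr5:114444019-114444318 (plus strand), Pmvk (the first of 2 windows) at chr3:89454291-89454590 (plus strand), Hsd17b7 at chr1:169969156-169969455 (minus strand) and Hmgcs1 at chr13:119690101-119690400 (plus strand).
Srebf2: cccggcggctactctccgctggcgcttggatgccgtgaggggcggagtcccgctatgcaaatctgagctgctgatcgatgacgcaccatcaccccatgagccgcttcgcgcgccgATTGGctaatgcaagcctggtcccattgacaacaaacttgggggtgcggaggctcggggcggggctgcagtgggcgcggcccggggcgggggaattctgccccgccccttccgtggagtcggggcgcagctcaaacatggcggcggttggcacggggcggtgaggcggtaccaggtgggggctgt
Mvk: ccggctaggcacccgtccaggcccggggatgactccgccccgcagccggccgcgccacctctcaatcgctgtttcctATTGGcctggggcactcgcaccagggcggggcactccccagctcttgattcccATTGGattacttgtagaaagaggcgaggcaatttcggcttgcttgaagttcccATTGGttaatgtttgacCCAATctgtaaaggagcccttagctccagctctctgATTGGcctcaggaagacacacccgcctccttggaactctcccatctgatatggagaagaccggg
Pmvk: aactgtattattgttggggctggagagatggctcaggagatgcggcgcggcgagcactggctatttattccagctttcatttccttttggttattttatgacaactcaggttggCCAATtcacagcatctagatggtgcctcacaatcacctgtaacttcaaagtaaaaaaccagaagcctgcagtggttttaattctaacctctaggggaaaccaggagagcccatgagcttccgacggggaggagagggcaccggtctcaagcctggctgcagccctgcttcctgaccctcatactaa
Hsd17b7: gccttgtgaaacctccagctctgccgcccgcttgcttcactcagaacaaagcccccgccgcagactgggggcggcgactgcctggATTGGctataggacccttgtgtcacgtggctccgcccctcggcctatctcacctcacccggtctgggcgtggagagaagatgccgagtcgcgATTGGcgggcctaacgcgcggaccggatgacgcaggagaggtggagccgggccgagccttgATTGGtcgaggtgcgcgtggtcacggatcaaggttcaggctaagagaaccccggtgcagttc
Hmgcs1: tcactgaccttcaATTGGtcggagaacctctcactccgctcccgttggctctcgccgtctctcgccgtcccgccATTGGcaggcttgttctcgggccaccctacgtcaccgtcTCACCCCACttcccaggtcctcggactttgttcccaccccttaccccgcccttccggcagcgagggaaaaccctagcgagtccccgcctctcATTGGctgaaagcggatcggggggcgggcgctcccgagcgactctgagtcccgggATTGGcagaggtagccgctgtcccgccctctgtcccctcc

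CCAAT stood 5 times in the Mvk window, 4 times in that of Hmgcs1, 3 times in that of Hsd17b7 and 1 time each in those of Srebf2 and Pmvk. Windows were given for 22 members, Idi1 among them. CCAAT was found in 19 of these 22 (41.1% of all 27025 genes with a window had it), and GGGCGG, the site of Sp1, in 21 of 22 (38.2% of all genes). CACGTG, the E-box, was found in 6 of 22 (8.09% of all genes), Hsd17b7 among them. TCACNCCAC was found in 1 of 22 (1.44% of all genes), and its longer form, which holds the shorter one, in 0 of 22 (0.0999% of all genes). All motifs were read on both strands. Other variants of the sterol regulatory element were not searched. A match describes letters in these windows and is not a test of binding.

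The main comparison asked what shTLS changes when both genotypes are averaged. Of the 27 members, 4 fell and 0 rose: Srebf2, the kinases Mvk and Pmvk of the mevalonate pathway, and Hsd17b7, which acts late in the sterol pathway. Over all genes 3.1% were called lower and 5.15% higher (590 and 980 of 19017). Calls needed a limma p below 0.05 after Benjamini-Hochberg adjustment across the whole table. The median difference of the members was -0.38 and 19 of 27 were negative, while the median of all genes was -0.015 with 9688 of 19017 negative. Hepatocyte RNA was measured in bulk, so fewer cells of a type and less RNA per cell cannot be told apart. Another scaling moved the split of called genes, to 1503 higher and 479 lower with the 75th percentile and to 610 higher and 9750 lower with the spike-in probes, which put the median of all genes at -0.81 and that of the members at -1.23.

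Both cultures of a mouse deviated from their group means together, and with the mouse as a block 9 members were lower and 1 was higher, where 16.0% and 16.8% of all genes were. These 9 were the 4 above and Insig2, Hmgcs1, Mvd, Fdps and Nsdhl, and the 1 was Mylip. With the replicate number, which is also the slide, as the block, 10 were lower and 1 higher (13.7% and 15.3% of all genes), with Abca1 added.

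**Figure D1:**
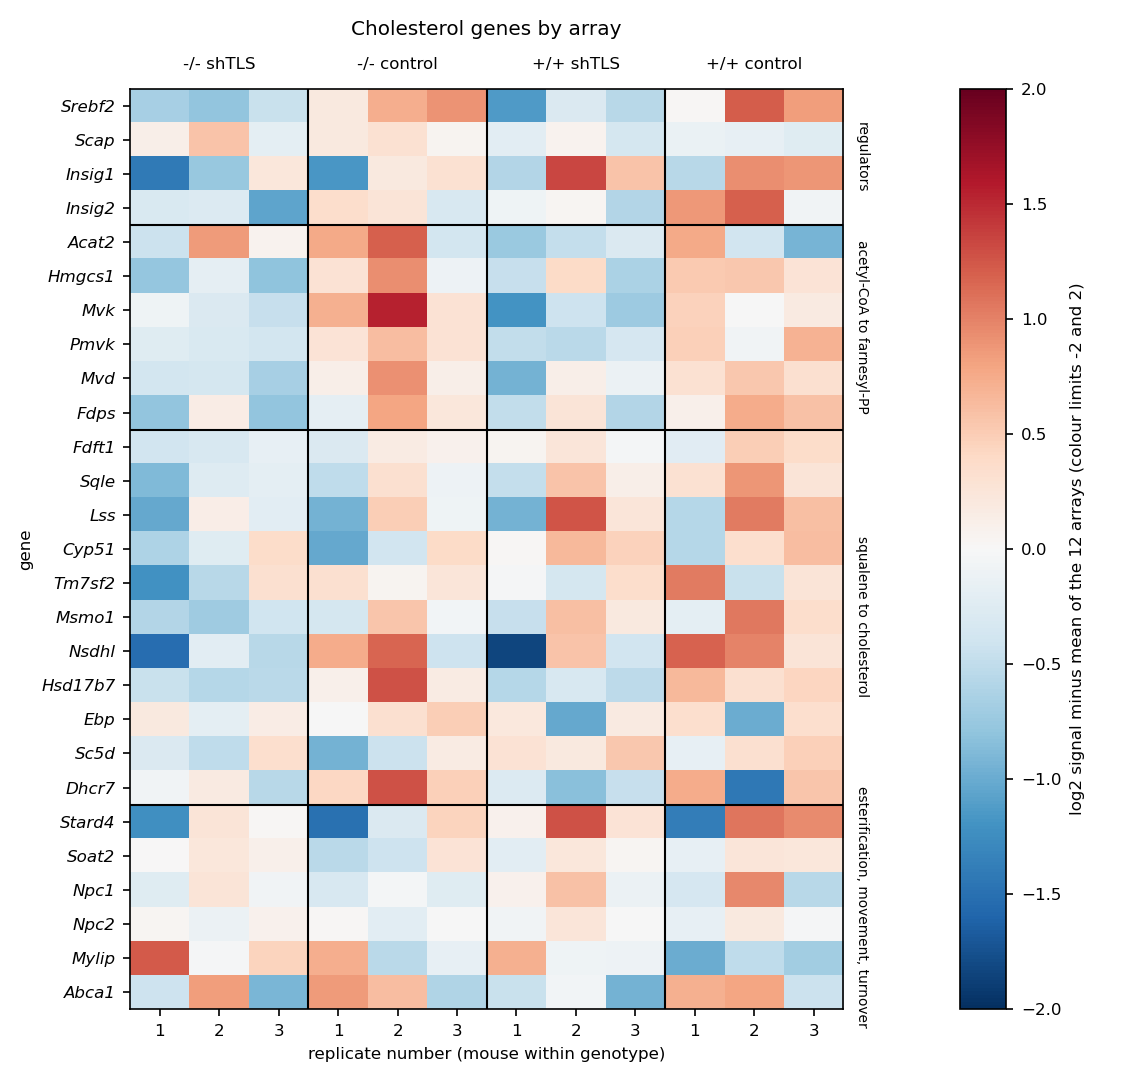
Each of the 27 tested members (rows, by role) on each of the 12 arrays (columns), as its log2 signal minus the mean of its 12 arrays, with colours limited at -2 and 2. Srebf2 and the genes from Hmgcs1 to Fdps are mostly blue on the shTLS arrays and red on the control arrays. Insig1, Lss, Cyp51, Stard4 and Soat2 are lowest at number 1 in each group.

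Among the 4 regulators 1 fell (3.1% of all genes were called lower), with a median of -0.48. Srebf2 read 7.82, 7.69 and 8.04 in -/- shTLS cells, against 8.68, 9.20 and 9.38 in -/- control cells, and 7.34, 8.19 and 7.94 in +/+ shTLS cells, against 8.50, 9.70 and 9.32 in +/+ control cells. Every shTLS array was below every control array. The mean difference was -1.29 (SE 0.25, adjusted p = 0.0135 in limma), a 2.45-fold lower signal, and it was called under all 9 other settings and without each of the 12 arrays in turn. Another Srebf2 probe was above background on 4 arrays and was not tested.

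Insig2, one of both proteins that retain SREBP-2 with Scap, read 12.07, 12.11 and 11.33 in -/- shTLS cells, against 12.74, 12.64 and 12.07 in -/- control cells, and 12.29, 12.42 and 11.80 in +/+ shTLS cells, against 13.25, 13.58 and 12.31 in +/+ control cells. It was lower with shTLS in all 6 mice, with log2 differences of -1.16 to -0.52. The groups overlapped, since replicate number 3, a different mouse in each genotype, was low throughout. Its difference of -0.76 (SE 0.27) had a limma adjusted p of 0.0967 without a block, 0.00781 with the mouse as a block and 0.0419 without +/+ control array 3. Its other probe gave -0.90 (adjusted p = 0.0428 in limma without a block).

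Insig1, itself a target of SREBP-2, read 6.90, 7.55 and 8.54 in -/- shTLS cells, against 7.14, 8.51 and 8.62 in -/- control cells, and 7.72, 9.65 and 8.88 in +/+ shTLS cells, against 7.76, 9.24 and 9.20 in +/+ control cells. Replicate number 1 was lowest in every group. The hairpin difference of -0.21 (SE 0.45, limma adjusted p = 0.793) was smaller than the spread between mice. Scap read 14.04, 14.49 and 13.73 in -/- shTLS cells, against 14.11, 14.22 and 13.98 in -/- control cells, and 13.71, 13.99 and 13.57 in +/+ shTLS cells, against 13.78, 13.75 and 13.68 in +/+ control cells. Its mean difference was 0.00 (SE 0.18, limma adjusted p = 0.998), and the groups overlapped.

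All 6 measured genes from acetyl-CoA to farnesyl pyrophosphate had negative differences, with a median of -0.77, and 2 of the 6 passed the test (3.1% of all genes were called lower). With the mouse as a block, where 16.0% of all genes were lower, 5 of 6 passed, all but Acat2, the thiolase at the start of the pathway (-0.34, limma adjusted p = 0.565).

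Mvk, which phosphorylates mevalonate, read 7.38, 7.17 and 7.01 in -/- shTLS cells, against 8.18, 9.00 and 7.76 in -/- control cells, and 6.26, 7.05 and 6.73 in +/+ shTLS cells, against 7.92, 7.46 and 7.65 in +/+ control cells. No shTLS array reached the lowest control array. The difference was -1.06 (SE 0.24, limma adjusted p = 0.0259), a 2.08-fold lower signal. The other probe of Mvk gave -0.94 and did not pass (limma adjusted p = 0.0663). The call was lost, at adjusted p of 0.0542 to 0.0677 in limma, without any 1 of -/- control arrays 1 and 2, -/- shTLS arrays 2 and 3, +/+ control array 1 and +/+ shTLS array 3.

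Pmvk, the next kinase, read 11.74, 11.67 and 11.61 in -/- shTLS cells, against 12.26, 12.60 and 12.27 in -/- control cells, and 11.48, 11.44 and 11.64 in +/+ shTLS cells, against 12.46, 11.91 and 12.68 in +/+ control cells. The 6 shTLS values lay close together and below all control values. The difference was -0.77 (SE 0.18, limma adjusted p = 0.0268), a 1.70-fold lower signal. The other probe of Pmvk gave -0.61 and did not pass (limma adjusted p = 0.0672). For the brightest probe, leaving out any 1 of the 6 arrays just named for Mvk, or +/+ shTLS array 2, raised the adjusted p in limma to between 0.0538 and 0.0760.

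Mvd, the decarboxylase that forms isopentenyl pyrophosphate, read 7.37, 7.39 and 7.09 in -/- shTLS cells, against 7.87, 8.66 and 7.87 in -/- control cells, and 6.79, 7.86 and 7.63 in +/+ shTLS cells, against 8.05, 8.28 and 8.06 in +/+ control cells. The shTLS arrays again stayed below all control arrays, though by a narrow margin at +/+ mouse 2. Its difference of -0.78 (SE 0.23) had an adjusted p of 0.0621 in limma and of 0.0175 with the mouse as a block.

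Hmgcs1, which makes the HMG-CoA used for mevalonate, read 12.90, 13.50 and 12.86 in -/- shTLS cells, against 13.97, 14.61 and 13.56 in -/- control cells, and 13.21, 14.05 and 13.04 in +/+ shTLS cells, against 14.19, 14.21 and 13.94 in +/+ control cells. Groups did not overlap in -/- cells and overlapped in +/+ cells, where mouse 2 changed by -0.16 only. The difference was -0.82 (SE 0.25), with a limma adjusted p of 0.0664 without a block and 0.0101 with the mouse as a block. It was 0.0453 without -/- control array 3 and 0.0441 without +/+ shTLS array 2. The other probe of Hmgcs1 gave -0.73 (limma adjusted p = 0.189 without a block).

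Fdps, which joins isoprene units into farnesyl pyrophosphate, read 12.37, 13.32 and 12.38 in -/- shTLS cells, against 12.99, 13.95 and 13.39 in -/- control cells, and 12.68, 13.43 and 12.58 in +/+ shTLS cells, against 13.26, 13.92 and 13.75 in +/+ control cells. Replicate number 2 was the highest in every group, and each mouse was lower with shTLS, with differences of -1.18 to -0.49. The difference of -0.75 (SE 0.27) had a limma adjusted p of 0.101, and of 0.0108 with the mouse as a block.

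**Figure D2:**
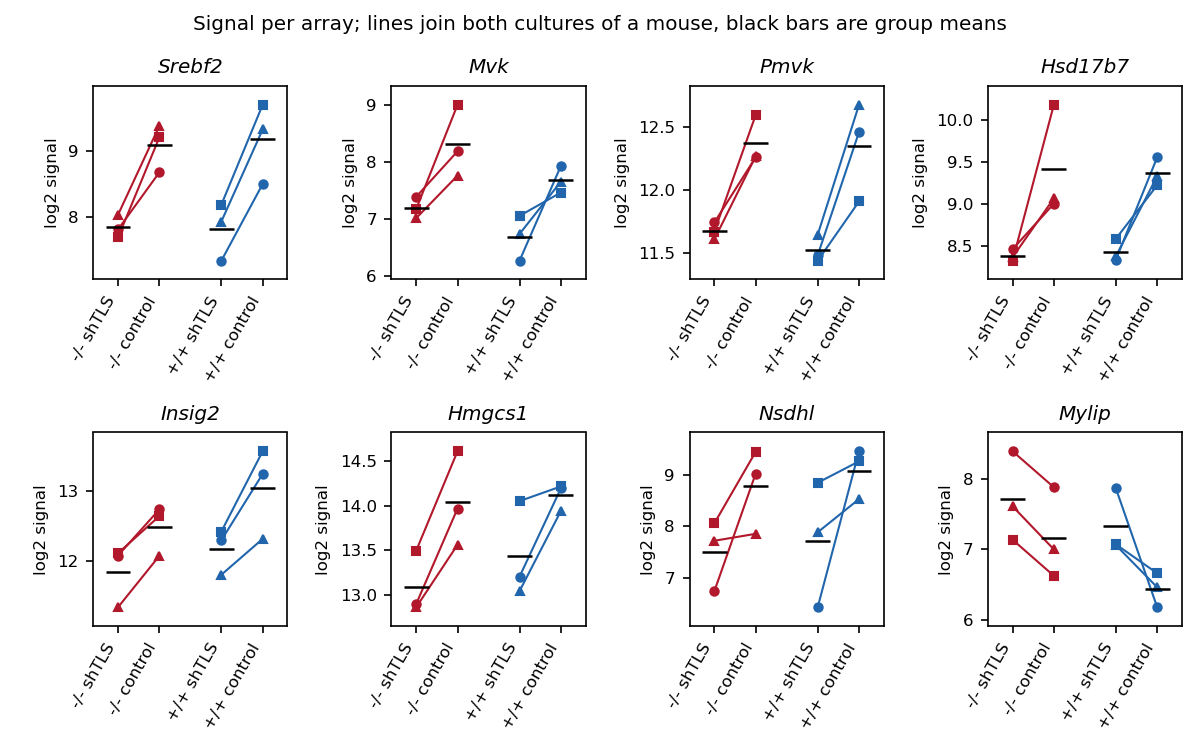
Log2 signal (vertical axis, 1 panel a gene) of 8 members in each culture, with shTLS left of control in each genotype, -/- in red and +/+ in blue, lines joining both cultures of a mouse (circle, square and triangle are mice 1, 2 and 3) and black bars at group means (n = 3). All lines of Srebf2, Mvk, Pmvk, Hsd17b7, Insig2, Hmgcs1 and Nsdhl rise toward the control, and all 6 lines of Mylip descend.

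The 11 enzymes from squalene to cholesterol were less uniform, with a median of -0.38 and 1 of 11 passing, where 3.1% of all genes were called lower. With the mouse as a block 2 of 11 passed, near the 16.0% of all genes lower in that fit. Hsd17b7, the sterol ketoreductase, read 8.46, 8.33 and 8.37 in -/- shTLS cells, against 9.00, 10.18 and 9.07 in -/- control cells, and 8.34, 8.59 and 8.38 in +/+ shTLS cells, against 9.56, 9.22 and 9.33 in +/+ control cells. All 6 shTLS values were below all 6 control values. The difference was -0.98 (SE 0.22, limma adjusted p = 0.0242), a 1.98-fold lower signal, and its other probe gave -1.05 (limma adjusted p = 0.0275). The call was lost without any 1 of -/- shTLS arrays 2 and 3, +/+ control array 1 and +/+ shTLS array 3, at 0.0576 to 0.0632 in limma.

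Nsdhl, which acts with Msmo1 and Hsd17b7 to remove methyl groups at carbon C-4 of the sterol, read 6.75, 8.06 and 7.72 in -/- shTLS cells, against 9.02, 9.44 and 7.86 in -/- control cells, and 6.44, 8.84 and 7.89 in +/+ shTLS cells, against 9.45, 9.26 and 8.53 in +/+ control cells. It differed by -0.13 in -/- mouse 3 and by -3.01 in +/+ mouse 1, so the mice differed widely. Its difference of -1.31 (SE 0.44) had a limma adjusted p of 0.0871, and 0.0490 with the mouse as a block, and the remaining probes gave -1.40 and -1.36.

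The other 9 enzymes of this stretch passed in no fit of the hairpin comparison that used all 12 arrays and the deposited scaling. Dhcr7, which makes cholesterol from its direct precursor, had -0.67 (SE 0.37) and Tm7sf2, a sterol reductase, -0.49 (SE 0.31). The limma adjusted p of Dhcr7 was 0.254 with all arrays and 0.0310 without +/+ control array 2, which read 10.30 beside 12.47 and 12.28. A dimmer probe of Dhcr7, with a mean signal of 5.70, gave -0.96 with all arrays (SE 0.28, limma adjusted p = 0.0585). Sqle, the monooxygenase that starts the conversion of squalene (-0.38), and Msmo1 (-0.45) were lower with shTLS in all 6 mice without passing. Fdft1, Lss and Ebp had -0.20, -0.18 and -0.16. Sc5d and Cyp51, a desaturase and the lanosterol demethylase, had 0.19 and 0.21. The probes of Cyp51 differed in sign, with 0.30 and -0.26 beside 0.21 for the brightest.

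Of the 6 genes of esterification, movement and turnover 0 passed without a block in limma, and their median was 0.15. Over all genes 3.1% were called lower and 5.15% higher. Unadjusted, 1 of the 6 and 5348 of all 19017 genes had a limma p under 0.05. Mylip, a ubiquitin ligase induced by the sterol receptor LXR, read 8.40, 7.14 and 7.61 in -/- shTLS cells, against 7.88, 6.63 and 7.001 in -/- control cells, and 7.87, 7.07 and 7.06 in +/+ shTLS cells, against 6.18, 6.66 and 6.46 in +/+ control cells. It was higher with shTLS in all 6 mice and the groups did not overlap in +/+ cells. Its difference of 0.72 (SE 0.29) had a limma adjusted p of 0.138, of 0.0276 with the mouse as a block, and was -0.067 when arrays were scaled on the spike-in probes.

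Abca1, the exporter of cholesterol to apolipoprotein A-I and also an LXR target, read 10.15, 11.41 and 9.65 in -/- shTLS cells, against 11.43, 11.20 and 9.97 in -/- control cells, and 10.12, 10.52 and 9.62 in +/+ shTLS cells, against 11.28, 11.36 and 10.14 in +/+ control cells. It was lower with shTLS in 5 of 6 mice. Replicate number 3 had the lowest value in each group. The difference of -0.65 (SE 0.38) had a limma adjusted p of 0.291, of 0.0547 with the mouse as a block and of 0.0412 with the replicate number as the block.

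Stard4, a cytosolic sterol carrier, Npc1 and Npc2, which export cholesterol from lysosomes, and Soat2, which esterifies it, had differences of 0.23, 0.17, 0.06 and 0.13. Npc2 had the smallest spread of all members, 0.15 within groups, and Stard4 the largest, 0.99. The probes of Stard4 differed in sign, with 0.22 and -0.41 beside 0.23.

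**Figure D3:**
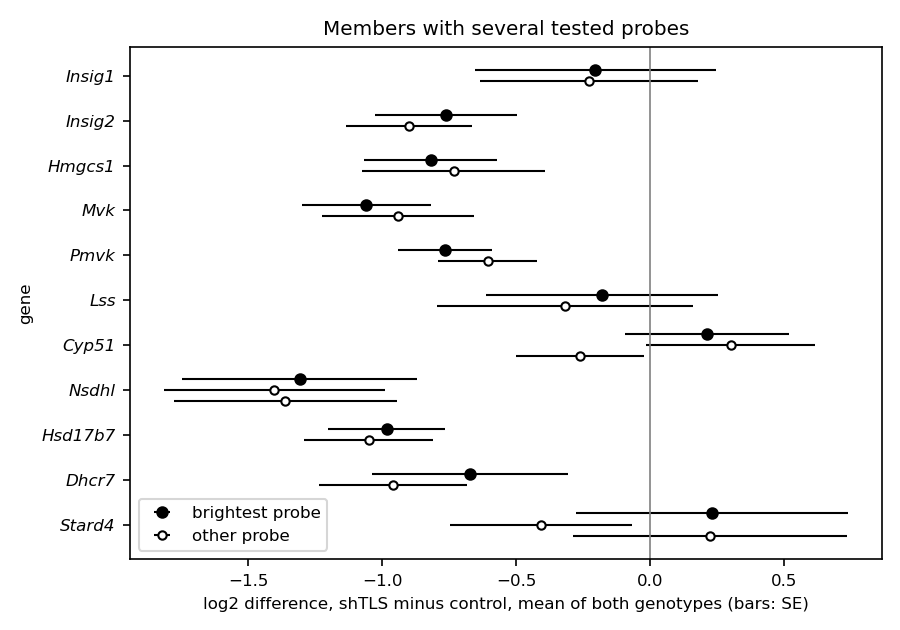
Log2 difference between shTLS and control (mean of both genotypes, bars are the SE of the fit) for every tested probe of the 11 members with several, the brightest probe filled and the others open. The probes of 9 members share a sign, while Cyp51 and Stard4 each have 1 open point left of zero and the rest right of it.

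Over arrays, 5 of 27 members had all 6 shTLS values below all 6 control values (Srebf2, Mvk, Pmvk, Mvd and Hsd17b7), where 2.09% of all genes did. In 11 of 27 the shTLS culture was lower in all 6 mice (18.9% of all genes), and in 2, Npc2 and Mylip, it was higher in all 6 (19.4%). The median difference of the members was -0.37, -0.54 and -0.25 in -/- mice 1, 2 and 3, and -0.59, -0.16 and -0.36 in +/+ mice 1, 2 and 3. By replicate number, number 1 was the lowest in all 4 groups for Insig1, Lss, Cyp51, Stard4 and Soat2, a pattern of 9.2% of all genes. Number 2 was the highest in all 4 groups for Hmgcs1, Mvd, Fdps, Lss and Npc1, a pattern of 6.02% of all genes. Number 3 was the lowest in all 4 groups for Scap, Insig2, Hmgcs1 and Abca1 (7.01% of all genes) and the highest for Sc5d (10.2%). Number 1 was the highest in all 4 groups for 0 members (10.2% of all genes), and number 2 was the lowest for 0 members (7.65%).

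Marker genes of other liver cells were compared between the hairpins as well. All 9 tested macrophage markers had negative differences (median -1.10, with 9 of 9 negative in -/- cells and 6 of 9 in +/+ cells), and 4 of 5 cholangiocyte markers did (median -1.26). Of the endothelial markers 6 of 8 had positive differences (median 0.18), and of the stellate or fibroblast markers 5 of 6 had negative ones (median -0.27). In limma 0 markers of these 4 lists passed without a block (3.1% of all genes were called lower and 5.15% higher). Unadjusted, 2 of 5 cholangiocyte markers, 1 of 9 macrophage markers and 5348 of all 19017 genes had a limma p under 0.05. With the mouse as a block 5 of 9 macrophage and 3 of 5 cholangiocyte markers passed, all lower (16.0% of all genes were lower and 16.8% higher in that fit), and 0 endothelial and 0 stellate markers did. The summed macrophage signal, on the linear scale, was 4866 to 22359 in -/- shTLS cells, against 6510 to 75435 in -/- control cells. In +/+ cells it was 4264 to 4697 with shTLS, against 3490 to 11304 with the control hairpin. The summed cholangiocyte signal was 18501 to 62254 in -/- shTLS cells, against 49253 to 215004 in -/- control cells. In +/+ cells it was 18932 to 44201 with shTLS, against 40521 to 142452 with the control hairpin. Most of this sum was Spp1 on every array, which read 14.07 to 15.86 on the log2 scale in -/- shTLS cells, against 15.50 to 17.62 in -/- control cells, while Epcam was higher with shTLS in 4 of 6 mice. The summed endothelial signal was 2397 to 10899.8 in -/- shTLS cells, against 2429.9 to 6150.5 in -/- control cells. In +/+ cells it was 1501 to 4110.2 with shTLS, against 1874 to 3872 with the control hairpin. The summed stellate signal was 9122 to 45551 in -/- shTLS cells, against 12539 to 41818 in -/- control cells. In +/+ cells it was 9712 to 16635 with shTLS, against 12955 to 18654 with the control hairpin. Of the hepatocyte markers 9 of 9 were above background on all arrays, and 8 of 9 had negative differences (median -0.62). The summed hepatocyte signal was 266751 to 376358 in -/- shTLS cells, against 360099 to 508817 in -/- control cells. In +/+ cells it was 383006 to 414720 with shTLS, against 365366 to 736444 with the control hairpin. The part of these cells in the members' differences was not tested.

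Within each genotype, 3 arrays against 3 gave no calls among the members. In -/- cells 0 of 27 passed (0.989% of all genes did), with a median of -0.43. Unadjusted, 6 of 27 members and 2315 of all 19017 genes had a limma p under 0.05. In +/+ cells 0 of 27 passed (1.2% of all genes), with a median of -0.30. Here 5 of 27 members and 3139 of all 19017 genes had an unadjusted p under 0.05 in limma. With the mouse as a block, Srebf2 and Hmgcs1 were lower in -/- cells (limma adjusted p = 0.0168 and 0.0473), where 3.14% of all genes were called lower. In +/+ cells Srebf2, Insig2 and Pmvk were (0.00985, 0.0280 and 0.0353 in limma), where 7.05% of all genes were. Srebf2 differed by -1.24 in -/- cells and -1.35 in +/+ cells, and Mvk by -1.12 in -/- cells and -0.995 in +/+ cells (SE 0.35 each for Srebf2, 0.34 each for Mvk).

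Whether the hairpin acted differently in both genotypes was tested as the difference of both effects. Of the members 0 passed, as did 0 of all 19017 genes (0.0%), and 0 members and 50 of all genes had an unadjusted p under 0.05 in limma. The members' values ran from -0.44 for Insig1 (SE 0.90) to 0.43 for Soat2 (SE 0.38). For Srebf2 it was 0.11 (SE 0.50) and for Mvk -0.13 (SE 0.48). Differences of the size of these standard errors were not detectable in this fit, which had 3 arrays a group and left out the pairing by mouse. With the mouse as a block, 0 of all genes passed and 295 had an unadjusted p under 0.05 in limma.

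**Figure D4:**
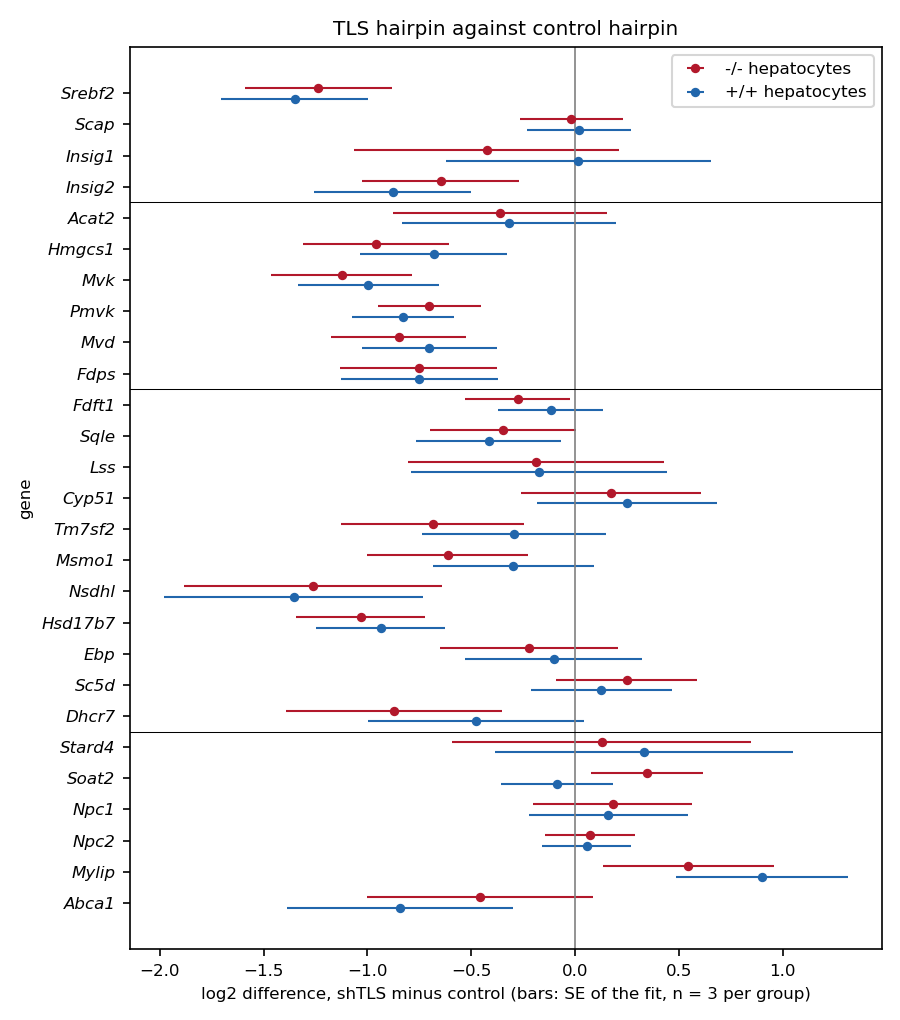
Log2 difference between shTLS and control for each member in -/- cells (red, upper point of each pair) and +/+ cells (blue, lower point), with bars of the SE of the fit (n = 3 per group) and lines between the roles. Both points lie left of zero for Srebf2, Insig2 and all 6 genes from Acat2 to Fdps. The same holds for Abca1 and for the enzymes from squalene to cholesterol other than Cyp51 and Sc5d. The bars of both genotypes overlap for all genes.

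The loss of PGC-1alpha was compared in the same way. Averaged over both vectors, with the mouse as a random block, 0 of 27 members passed (0.116% of all genes did). Unadjusted, 0 members and 524 of all 19017 genes had a limma p under 0.05. With shTLS 0 passed (0.0841% of all genes) and with the control hairpin 0 passed (0.0894%). An unadjusted limma p under 0.05 was found for 0 members in either, and for 404 genes with shTLS and 625 with the control hairpin. With the replicate number, which is also the slide, as the block, 0 of 27 passed (0.415% of all genes) and 9 of 27 had an unadjusted p under 0.05 in limma (13.1% of all genes), among them 3 of 4 regulators and 5 of 11 enzymes from squalene to cholesterol. In that fit 5 members had an unadjusted p under 0.05 with shTLS (6.72% of all genes) and 4 with the control hairpin (8.72%). The median of the members was -0.20, with 19 of 27 negative. The most negative were Insig1 with -0.86 and Stard4 with -0.76, and the most positive was Acat2 with 0.69. Srebf2 had -0.03. With shTLS, the 3 -/- values of Fdft1, the squalene synthase, were below the 3 +/+ values (10.08, 10.15 and 10.31, against 10.53, 10.72 and 10.44), a pattern of 2.56% of all genes. With the control hairpin, the 3 -/- values of Scap were above the 3 +/+ values, a pattern of 3.35% of all genes. All 9 macrophage markers were higher in sign in -/- than in +/+ cells (median 2.06), where 0 passed and 0 had an unadjusted p under 0.05 in limma, or 7 with the replicate number as the block. Of the endothelial markers 7 of 8 were higher in sign (median 0.76), of the stellate markers 5 of 6 (median 0.75) and of the cholangiocyte markers 1 of 5 (median -0.40), with 0 passing. Their part in the members' values was not tested.

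**Figure D5:**
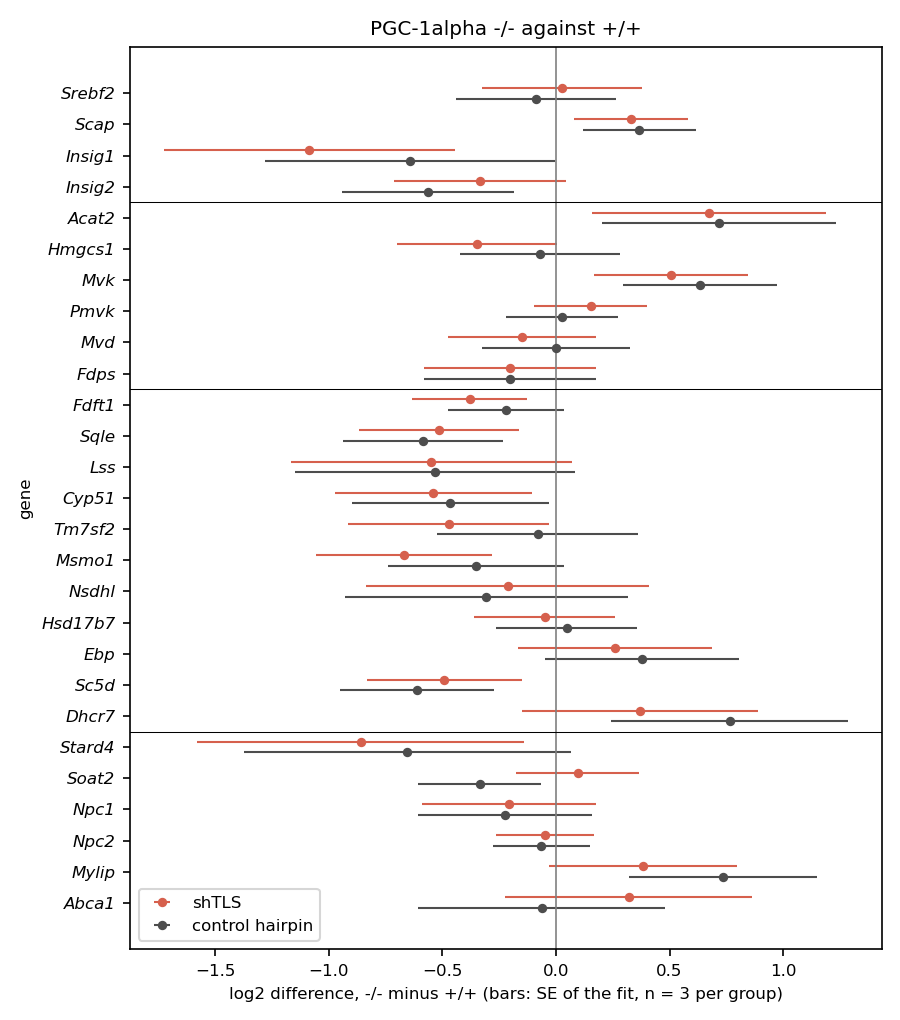
Log2 difference between -/- and +/+ cells for each member with shTLS (orange, upper point) and with the control hairpin (grey, lower point), with bars of the SE of the fit (n = 3 per group). The points of Srebf2, Pmvk, Mvd and Hsd17b7 lie close to zero, and the sterol genes from Fdft1 to Nsdhl lie left of it.

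A further 31 genes of sterol biology, of which 30 were tested, were counted beside the members. Of these 2 fell and 1 rose with shTLS (3.1% and 5.15% of all genes), with a median of -0.15. Mbtps2, a protease that frees SREBP, fell by 0.80 (limma adjusted p = 0.0135), and Srebf1, the sister gene of Srebf2, fell by 0.77 (limma adjusted p = 0.0404). The 1 that rose was Gramd1c, a sterol carrier at contacts with the plasma membrane, with 1.76 (SE 0.42, limma adjusted p = 0.0302). Mbtps2 was dim, at 5.06 to 6.75 over the 12 arrays. Over the 10 settings with all arrays its difference ran from -1.51 to -0.33, and it was called in each. The call of Mbtps2 held without each of the 12 arrays in turn, while those of Srebf1 and Gramd1c held without 5 of 12 each, with adjusted p up to 0.103 and 0.0801 in limma. With the mouse as a block 8 of the 30 were lower and 2 higher (16.0% and 16.8% of all genes).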

How the data were processed

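The RNA of the 12 cultures went, as Cy3-labelled target, onto 1-colour Agilent arrays that were read with Agilent Feature Extraction 10.1.1.1, per the submitters' processing notes. Per the file headers, the deposited array files hold linear intensities, namely a processed signal from which background was subtracted and the medians of spot and background, beside flags of 0 or 1. The values of the deposited table are log2 signals. The authors raised signals under 1 to 1 and quantile-normalized the arrays, per the series' design text. All 12 of its columns were used, and 0 were left out. Each column correlated with the signals of its own array file by at least 0.998.

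The deposited log2 values were tested with limma 3.58.1 (R 4.3.3, statmod 1.5.0), as 1 fit of the 4 group means to 12 arrays, two-sided, with Benjamini-Hochberg adjustment over 19017 genes or accessions. Tested probes (24962 of 41174) were those well above background on every array of 1 or more groups, and the brightest stood for its gene. Symbols came through RefSeq accessions of a GRCm38.p6 annotation, which gave names and no coordinates, and 24375 probes matched. The array files name another build. For genotype averaged over vectors, the mouse was a random block (correlation 0.582). The test of the averaged hairpin comparison was checked on simulated data. These were drawn independently for each array, without the correlation within mice, so they cannot speak to its effect. For 3 arrays against 3, the smallest two-sided p that an exact test allows is 0.1.

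Same-numbered arrays of a genotype came from 1 mouse, per the labels' source names, so the numbers pair the samples. Deviations from the group mean correlated by 0.458 to 0.671 within mice, by 0.233 to 0.642 between genotypes of the same number, and by -0.544 to 0.0959 otherwise. Fits with the mouse or the number as a block were alternatives. The others were recomputed values, 75th percentile and spike-in scaling, normexp background correction (offset 50, on the median signal, since the array files used here give no mean signal), no filter and a stricter filter on dim probes, only the groups compared, the mean of all probes, no mouse block, and each array left out.

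The members and lists were chosen with earlier results of these data known. Values per array are given for members called in any comparison with or without a block and for Srebf2, Scap, Insig1, Insig2, Mylip and Abca1, and of the further sterol genes those called without a block are named. Some genes are not reported here, and the lists were counted without them.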

Additional observations from a re-analysis of the deposited data

How the results depend on the processing

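Counts of called members changed with the block and with spike-in scaling. For shTLS against control averaged over genotypes, 4 members became 10 with the mouse and 11 with the number as a replicate block, 24 with spike-in scaling and 1 to 5 without 1 array. For all genes, 1570 became 6234 and 5510 with these blocks, 10360 with spike-in scaling, 1029 with probes above background on all 12 arrays and 644 to 1940 without 1 array. In -/- cells 0 members became 2 with either block and 2 with spike-in scaling, and 188 genes became 1599 (mouse), 1182 (number), 110 (normexp), 91 (stricter filter) and 93 to 223 without 1 array. In +/+ cells 0 members became 3 (mouse), 4 (number) and 13 (spike-in), and 228 genes became 2975 (mouse), 2376 (number), 344 (75th percentile), 4245 (spike-in), 134 (normexp), 111 (stricter filter), 48 (only the groups compared) and 98 to 309 without 1 array. Split by direction, spike-in scaling called 115 genes higher and 98 lower in -/- cells (181 and 7 otherwise), and 246 higher and 3999 lower in +/+ cells (195 and 33 otherwise). For the genotype, 22 genes on average became 6 (stricter filter), 79 (number) and 55 (no mouse block), 16 with shTLS became 2 (stricter filter), 32 (number) and 10 to 20 without 1 array, and 17 with the control hairpin became 3 (stricter filter), 7 (only the groups compared), 30 (number) and 10 to 14 without 1 array. For the difference of both hairpin effects 0 genes became 0 to 1 without 1 array. In the genotype comparisons 0 members were called under any setting, blocks included. With spike-in scaling, which lowered the median of all genes, the sign turned for Scap (-0.77), Cyp51 (-0.68), Sc5d (-0.59), Stard4 (-0.66), Soat2 (-0.76), Npc1 (-0.72), Npc2 (-0.74) and Mylip (-0.067, and -0.22 in -/- cells), and with the 75th percentile for Ebp (0.013). Without 1 array the values ran from -0.10 to 0.091 for Scap, -0.45 to 0.052 for Insig1, -0.45 to 0.10 for Lss, -0.38 to 0.040 for Ebp and -0.17 to 0.46 for Stard4. Apart from the construction of each setting, the causes were not tested. The shTLS arrays had the lower raw signal. On them 23353 to 26679 probes passed the scanner's test against background, and on the control arrays 22706 to 25920.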
